A study of Mus musculus with 26 samples.

Results

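Expression of 9 genes of islet cell adhesion and guidance was followed by RNA sequencing of mouse pancreatic islets: the ligands Slit2 and Efna5, the Slit receptors Robo1 and Robo2, the adhesion molecules Cdh1, Cdh2, Ncam1 and Epcam, and the gap junction gene Gjd2. They were taken by gene symbol from a table of 13641 genes, and each of the 9 symbols matched 1 row. All islets were from C57BL/6J mice, with no transgene or treatment named in the labels, and 30 to 50 hand-picked islets were pooled for each sample. The groups were small islets of neonates at postnatal day 5 (9 libraries), large islets of neonates at postnatal day 5 (11 libraries) and islets of adults aged 2.5 months (6 libraries). Batch 1 held 4 small and 4 large neonatal libraries and no adult one, batch 2 held 3 small, 4 large and 4 adult libraries, and batch 3 held 2 small, 3 large and 2 adult libraries. The labels do not say whether libraries came from separate animals, so p-values measure the spread between libraries, which may be technical. The size that separated small from large islets is not given in the sources used here.

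Endocrine cells of the islet hold to one another and to their vessels and nerves through several surface systems. Cdh1 and Cdh2 encode E-cadherin and N-cadherin, which join like cells in a calcium-dependent way, while Ncam1 and Epcam encode adhesion molecules of the immunoglobulin and epithelial kinds. Gjd2 encodes connexin 36, the channel protein that couples β cells electrically. Slit proteins are secreted guidance cues read by Robo receptors, and in mice Robo receptors of β cells are needed for the normal arrangement of endocrine cells. Efna5 encodes ephrin-A5, a membrane-anchored ligand of EphA receptors that takes part in contact signalling between β cells in mice.

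Between neonatal and adult islets the ligands and 1 receptor moved most. Slit2 was higher in neonatal islets, and Robo2 and Efna5 were lower, with no overlap between the 20 neonatal and 6 adult libraries for any of the 3. Ncam1 was also higher in neonatal islets, by a smaller step. Small neonatal islets had less Slit2 and less Efna5 than large ones. Cdh1, the most abundant of the 9, had nearly the same FPKM (fragments per kilobase of gene per M, mega, of fragments) in every group.

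The regions in front of the 3 genes whose neonatal and adult ranges were apart are printed here, as RefSeq windows of up to 250 bases that end just before the first exon (GRCm38.p6, the same assembly as mm10), 5′ to 3′ on the gene's own strand. Capitals mark the GC box, GGGCGG or its reverse complement, a G and C rich motif bound by Sp factors. The Slit2 window lies at chr5:47982905-47983137 on the plus strand, the Efna5 window at chr17:62881318-62881567 on the minus strand and the Robo2 window at chr16:74411826-74412075 on the minus strand.
Slit2: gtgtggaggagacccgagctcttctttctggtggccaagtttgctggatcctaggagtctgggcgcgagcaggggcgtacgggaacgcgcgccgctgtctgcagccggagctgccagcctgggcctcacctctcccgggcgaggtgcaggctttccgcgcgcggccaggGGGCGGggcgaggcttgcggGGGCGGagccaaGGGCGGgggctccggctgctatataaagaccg
Efna5: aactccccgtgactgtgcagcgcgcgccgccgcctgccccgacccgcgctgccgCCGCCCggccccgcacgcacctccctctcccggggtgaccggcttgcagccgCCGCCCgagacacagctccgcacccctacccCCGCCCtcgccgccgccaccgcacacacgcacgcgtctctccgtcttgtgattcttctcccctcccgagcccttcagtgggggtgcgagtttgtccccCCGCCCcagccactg
Robo2: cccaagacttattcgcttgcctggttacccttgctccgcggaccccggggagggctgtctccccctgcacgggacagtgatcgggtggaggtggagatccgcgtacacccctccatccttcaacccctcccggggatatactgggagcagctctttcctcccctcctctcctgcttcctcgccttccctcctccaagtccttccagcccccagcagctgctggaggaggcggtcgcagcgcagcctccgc
The Slit2 window held 3 GC boxes and 1 TATAAA, the Efna5 window 4 GC boxes and no TATAAA, and the Robo2 window neither. On either strand, GGGCGG was found in 32.7% and TATAAA in 12.4% of 32851 RefSeq windows of mouse genes. Neighbouring cytosine and guanine (CpG) occurred 23 times in the Slit2 window, 32 times in the Efna5 window and 14 times in the Robo2 window. Robo2 has 3 annotated starts with a window, and the one shown adjoins its gene model in GENCODE M21. Such matches describe letters in a window and not binding.

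All log2 changes are of FPKM + 1, from a limma fit with terms for group and batch over 13402 genes with at least 1 FPKM in at least 6 libraries, and a gene is called at a Benjamini-Hochberg adjusted p under 0.05 over those genes. All 9 members passed that filter. Slit2 passed only through neonatal libraries, since it was below 1 FPKM in all 6 adult ones. The median log2 change of all genes between neonatal and adult islets was 0.16, which median-of-ratios rescaling moved to -0.02. A change of that size is therefore no more than the typical gene shows. In the same comparison 46.8% of genes were called higher and 21.1% lower in neonatal islets, and of the members 3 were higher (Slit2, Ncam1, Epcam), 2 lower (Robo2, Efna5) and 4 not called. After median-of-ratios rescaling 4475 genes were higher and 4663 lower, and of the members 2 were higher (Slit2, Ncam1) and 3 lower (Robo2, Efna5, Cdh1). Ranges of all neonatal and all adult libraries were apart, with neonatal higher, for 20.2% of genes and 1 member, and with neonatal lower for 5.21% of genes and 2 members.

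**Figure D1:**
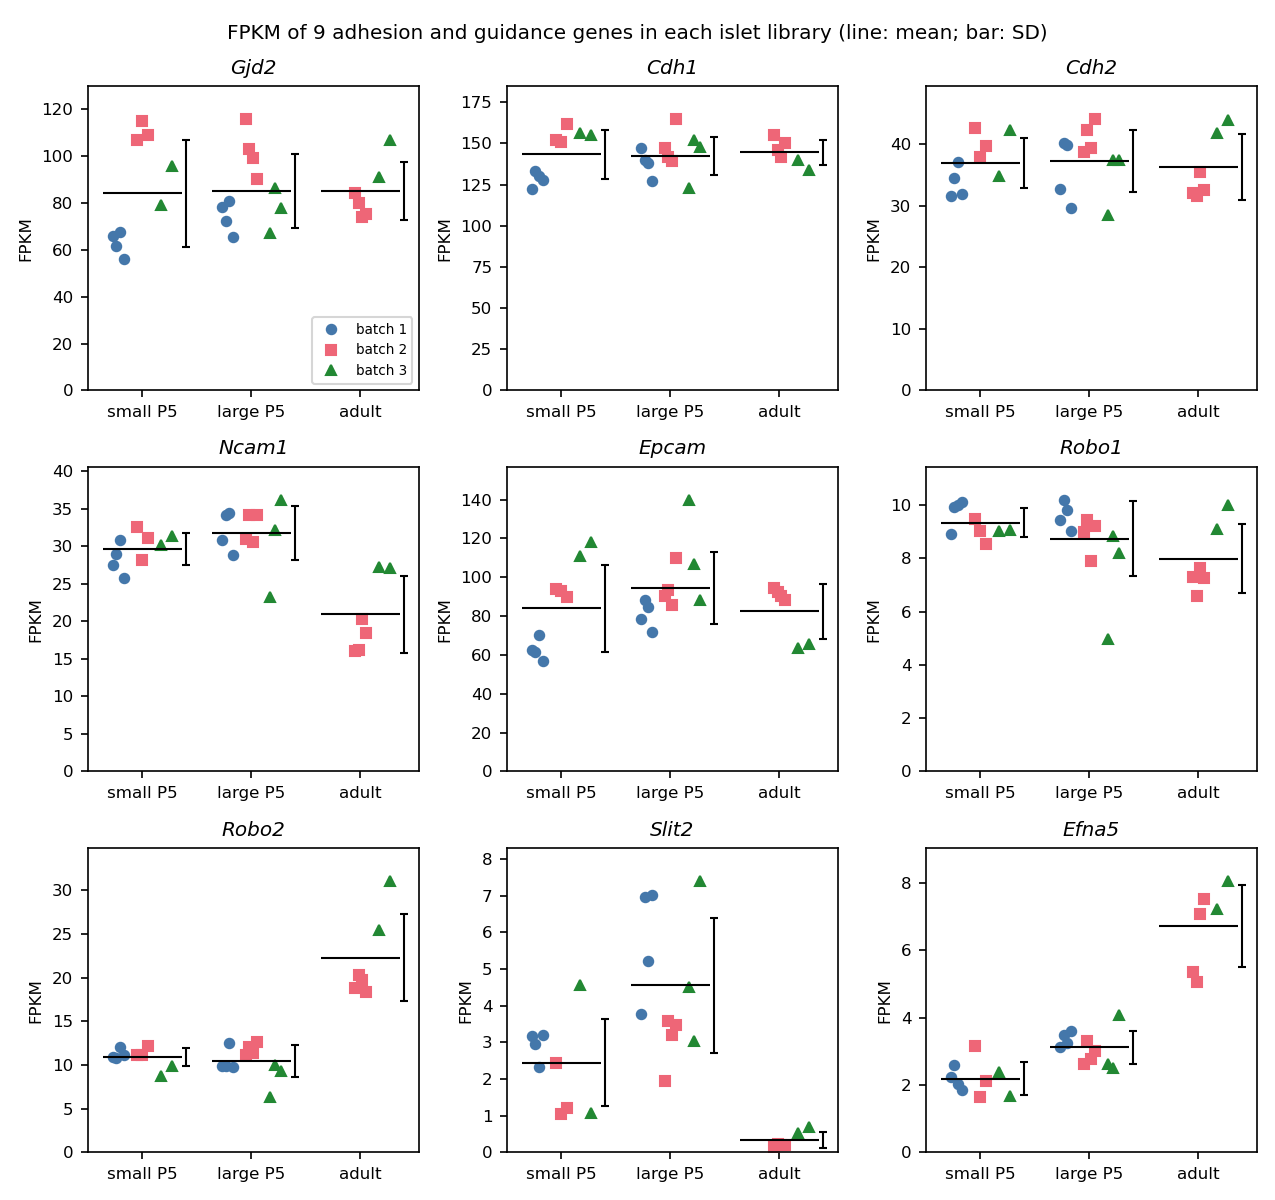
FPKM (vertical axes, from 0) of the 9 genes in each library, with neonatal small, neonatal large and adult islets from left to right, symbols for batches, lines for means and bars for the SD. The 20 neonatal points of Slit2 lie above, and those of Robo2 and Efna5 below, all 6 adult points.

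Each library held 15.5 M to 32.0 M fragments, as recovered from its FPKM. The 10 endocrine markers, insulin among them, summed to 106000 to 167000 FPKM in small neonatal islets, 125000 to 171000 in large neonatal islets and 165000 to 207000 in adult islets. In neonatal islets 5 of them were called lower and 1 higher, and none of the 10 was at 0 throughout a group. Large islet library 14 of batch 3 and adult library 1 of batch 2 carried summed acinar markers of 3390 and 4020 FPKM, against 798 or less in the others. Without these 2 libraries the number of members called in each direction was the same in all 4 comparisons. In bulk islets, fewer cells of a type and less RNA per cell cannot be told apart.

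Slit2, which encodes a secreted guidance ligand and lies on chromosome 5 at 47983138 to 48307733 (mm10, plus strand), was the member with the largest rise. In batch 2, Slit2 had 2.43, 1.05 and 1.21 FPKM in small neonatal islets, 1.96, 3.59, 3.2 and 3.48 in large neonatal islets, and 0.135, 0.225, 0.215 and 0.208 in adult islets. In batch 3, Slit2 had 4.57 and 1.07 FPKM in small neonatal islets, 4.5, 3.05 and 7.41 in large neonatal islets, and 0.522 and 0.701 in adult islets. Every neonatal value exceeded every adult value, in each batch and across batches. The adult values rest on 53 to 174 fragments per library, against 365 to 2408 in neonatal libraries. On the log2 scale of FPKM + 1, Slit2 changed by 1.42 ± 0.17 (SE, adjusted p = 3.39e-08, limma), with 1.40 in batch 2 and 1.45 in batch 3. Adding 1 understates the change of a gene this low: with voom on recovered fragment counts the log2 change was 3.04 ± 0.37, and in the authors' deposited table it was 3.02, marked UP with an FDR of 4.75e-08.

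The amount of Slit2 also differed with islet size among neonates. In batch 1, Slit2 had 3.18, 2.96, 2.33 and 3.2 FPKM in small islets, against 3.78, 6.96, 5.22 and 7.01 in large islets, with no overlap. In batches 2 and 3 the small and large values listed above overlapped. Over all batches Slit2 was lower in small islets by a log2 change of -0.73 ± 0.15 (SE, adjusted p = 0.00256, limma), with -0.76, -0.68 and -0.75 in batches 1, 2 and 3. Alone, batch 1 passed the threshold (adjusted p = 0.00386) and batches 2 and 3 did not (0.219 and 0.954). In the comparison of small with large islets 4.96% of genes were called higher and 12.7% lower in small islets, and of the members 0 were higher and 2 lower, Slit2 and Efna5. After median-of-ratios rescaling 1070 genes were higher and 1118 lower, with the same counts of members. Leaving out each library in turn kept both calls.

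Markers of mesenchymal cells, which form connective tissue and vessel walls, moved with Slit2. Of 10 mesenchymal genes, 9 were called higher in neonatal than adult islets and 0 lower, against 46.8% and 21.1% of all genes. In small against large neonatal islets 6 were called lower and 0 higher, against 12.7% and 4.96% of all genes. Pdgfrb, Rgs5, Acta2 and Tagln were not called with size. The summed level of the 10 ran from 200 to 652 FPKM in small neonatal islets and from 306 to 1450 in large neonatal islets. It was 76.6 to 149 in adult islets, and none of the 10 was at 0 throughout a group. The 2 genes whose log2 level followed Slit2 most closely over 26 libraries, less batch terms, were the collagen genes Col1a1 (Pearson r = 0.985) and Col1a2 (0.985), and r was 0.941 and 0.924 once group differences were removed too. With group and batch terms removed, Slit2 had r of 0.887 with the summed mesenchymal, 0.597 with the endothelial and 0.485 with the neuronal markers. Its r was 0.348 with Schwann and glial, -0.388 with endocrine and -0.0839 to 0.0783 with the remaining lists. These libraries share groups, depth and islet preparation, and the correlations are a description. Neuronal genes were higher with age in 7 of 9 and lower in small islets in 6 of 9. For Schwann and glial genes it was 6 of 9 and 6 of 9. The part of any of these cells in the Slit2 difference was not tested.

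**Figure D2:**
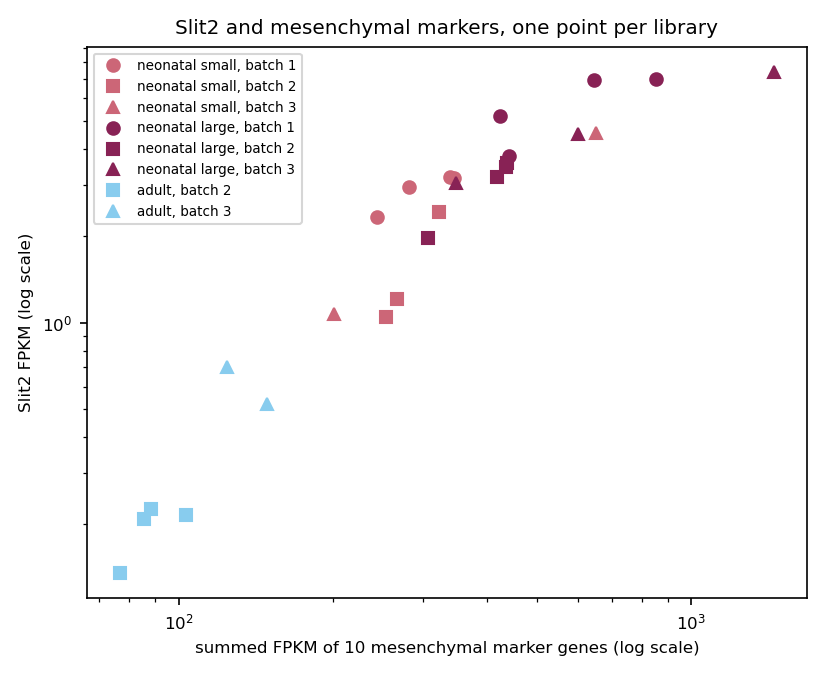
Slit2 FPKM against the summed FPKM of 10 mesenchymal markers, both on log scales, with 1 point per library, colours for groups and symbols for batches. The 6 adult libraries sit at the lower left, with sums of 76.6 to 149, and the large neonatal libraries reach the upper right.

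Efna5, the ephrin-A5 gene (chromosome 17, 62604184 to 62881317, minus strand), was lower in neonatal islets. In batch 2, Efna5 had 3.17, 1.63 and 2.12 FPKM in small neonatal islets, 2.61, 3.29, 2.76 and 3.01 in large neonatal islets, and 5.35, 5.04, 7.08 and 7.52 in adult islets. In batch 3, Efna5 had 2.37 and 1.66 FPKM in small neonatal islets, 2.62, 2.49 and 4.08 in large neonatal islets, and 7.23 and 8.06 in adult islets. The highest neonatal value, 4.08, stayed below the lowest adult value, 5.04. Efna5 fell by a log2 change of -1.12 ± 0.10 (SE, adjusted p = 2.17e-10, limma) in neonatal islets, with -1.01 in batch 2 and -1.32 in batch 3. In the authors' deposited table the log2 fold change was -1.59, marked DOWN with an FDR of 6.34e-10.

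Within neonates, Efna5 was lower in small islets than in large ones. In batch 1, Efna5 had 2.24, 2.58, 2.03 and 1.85 FPKM in small islets, against 3.12, 3.49, 3.25 and 3.59 in large islets. Batch 1 ranges were apart, the batch 3 ranges too, and the batch 2 ranges overlapped. The pooled log2 change was -0.38 ± 0.09 (SE, adjusted p = 0.0065, limma), with -0.46, -0.27 and -0.42 in batches 1, 2 and 3, of which batch 1 alone passed the threshold (adjusted p = 0.00341). Markers of some other cells were lower in small islets too, 6 of 10 mesenchymal, 6 of 9 neuronal, 6 of 9 Schwann and glial and 4 of 8 macrophage genes, with 0 higher in each list. In the other lists 1 of 10 endothelial, 2 of 8 duct, 0 of 8 acinar and 0 of 10 endocrine genes were lower, against 12.7% of all genes. With group and batch terms removed, Efna5 had r of 0.607 with the summed mesenchymal and 0.578 with the summed neuronal markers over 26 libraries. Its r was -0.525 with the summed endocrine markers, 0.41 with the endothelial ones and -0.356 to 0.0602 with the remaining lists. The part of any of these cells was not tested. Efna5 and Slit2 moved the same way with size and opposite ways with age. Efna5 averaged 2.18 ± 0.49 FPKM in small neonatal islets (SD, n = 9), 3.12 ± 0.49 in large neonatal islets (n = 11) and 6.71 ± 1.23 in adult islets (n = 6). Among the genes most alike to Efna5 over the 26 libraries, less batch terms, was Prkaa2 (r = 0.95), which encodes a catalytic subunit of AMP-activated kinase, and with group differences removed r was 0.71.

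Of the receptors, Robo2 differed with age over all batches and Robo1 did not pass the threshold there. In batch 2, Robo2 (chromosome 16, 73891839 to 74411825, minus strand) had 11.2, 11.2 and 12.2 FPKM in small neonatal islets, 11.2, 12.1, 11.4 and 12.6 in large neonatal islets, and 18.8, 20.3, 19.7 and 18.4 in adult islets. In batch 3, Robo2 had 8.75 and 9.88 FPKM in small neonatal islets, 6.32, 10.0 and 9.37 in large neonatal islets, and 25.5 and 31.1 in adult islets. The 2 adult libraries of batch 3 were the highest of all, and the neonatal libraries of that batch were lower than those of batch 2. Robo2 fell by a log2 change of -0.997 ± 0.11 (SE, adjusted p = 1.25e-08, limma) in neonatal islets, with -0.68 in batch 2 and -1.57 in batch 3. In the authors' deposited table Robo2 was marked DOWN, with a log2 fold change of -1.33 and an FDR of 8.81e-11. Small and large neonatal islets had nearly equal Robo2, 10.9 ± 1.06 FPKM (SD, n = 9) and 10.5 ± 1.80 (n = 11), a log2 change of 0.06 ± 0.10 (SE, adjusted p = 0.682, limma).

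Robo1 (chromosome 16, 72308306 to 73046095, plus strand), the other Slit receptor of the set, ran at 8.53, 9.07 and 10.1 FPKM (lowest, median, highest) in small neonatal islets, 4.97, 9.04 and 10.2 in large neonatal islets and 6.60, 7.46 and 10.0 in adult islets. Over all batches the groups overlapped, and the log2 change between neonatal and adult islets was 0.09 ± 0.09 (SE, adjusted p = 0.37, limma). In batch 2 alone, Robo1 had 9.49, 9.01 and 8.53 FPKM in small neonatal islets, 8.97, 9.43, 7.89 and 9.20 in large neonatal islets, and 7.29, 6.60, 7.64 and 7.26 in adult islets, and was called higher in neonatal islets (log2 change 0.28, adjusted p = 0.000716, limma), without overlap. In batch 3 the log2 change was -0.22 (adjusted p = 0.363). After median-of-ratios rescaling, in a fit of batches 2 and 3, it was 0.08 in batch 2 and -0.39 in batch 3. Without large islet library 14, whose 4.97 FPKM was the lowest Robo1 value, the log2 change was 0.14 and passed the threshold (adjusted p = 0.0326). The ratio of Robo2 to Robo1 within a library was 1.17 ± 0.13 in small neonatal islets (SD, n = 9), 1.21 ± 0.14 in large neonatal islets (n = 11) and 2.78 ± 0.26 in adult islets (n = 6). The highest neonatal ratio was 1.44 and the lowest adult ratio 2.53. In batch 2 the mean ratio was 1.28 in small neonatal, 1.34 in large neonatal and 2.69 in adult islets, and in batch 3 it was 1.03, 1.18 and 2.95 in the same groups. This ratio is free of library scaling and shows an unequal change of the 2 receptors.

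Ncam1 (chromosome 9, 49502136 to 49798925, minus strand), whose product carries polysialic acid in developing tissue, was higher in neonatal islets. In batch 2, Ncam1 had 32.6, 28.2 and 31.1 FPKM in small neonatal islets, 30.9, 34.1, 30.6 and 34.1 in large neonatal islets, and 16.1, 16.2, 20.3 and 18.5 in adult islets. In batch 3, Ncam1 had 30.1 and 31.3 FPKM in small neonatal islets, 23.2, 32.2 and 36.2 in large neonatal islets, and 27.2 and 27.1 in adult islets. Ages were clearly apart in batch 2, while in batch 3 large islet library 14 lay below both adult libraries. The pooled log2 change was 0.56 ± 0.09 (SE, adjusted p = 1.04e-05, limma), with 0.79 in batch 2 and 0.16 in batch 3, where it did not pass the threshold (adjusted p = 0.459). After median-of-ratios rescaling, in a fit of batches 2 and 3, the change was 0.581 in batch 2 and -0.0117 in batch 3. In the authors' deposited table the log2 fold change of Ncam1 was 0.343 with an FDR of 0.00234 and no mark. An antisense gene, Gm11149, shares 417 exon bases (4.81%) with Ncam1, and whether the counting used strand is not given in the sources used here, so reads there cannot be told apart.

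Epcam (chromosome 17, 87635979 to 87651129, plus strand), an adhesion molecule of epithelia that also marks pancreatic duct, was called higher in neonatal islets, with the difference in batch 3. In batch 2, Epcam had 94.0, 92.8 and 89.7 FPKM in small neonatal islets, 90.5, 93.5, 85.8 and 110 in large neonatal islets, and 94.4, 92.4, 90.6 and 88.3 in adult islets. In batch 3, Epcam had 111 and 118 FPKM in small neonatal islets, 140, 107 and 88.2 in large neonatal islets, and 63.6 and 65.4 in adult islets. The ages overlapped almost fully in batch 2 and were apart in batch 3. The pooled log2 change was 0.29 ± 0.11 (SE, adjusted p = 0.0209, limma), with 0.03 in batch 2 and 0.79 in batch 3 (adjusted p = 0.0108). The call was lost without adult library 5 (0.20, adjusted p = 0.111), without adult library 6 (0.21, adjusted p = 0.101) and under median-of-ratios rescaling (0.09, adjusted p = 0.493). Summed duct markers, like Epcam, were higher in the adult libraries of batch 2 than of batch 3, at 439 to 481 FPKM in batch 2 and 252 to 267 in batch 3, with Krt18 at 304 and 72.2 FPKM on average, and their part in the Epcam result was not tested.

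Neither cadherin passed the threshold between ages as deposited. Cdh1 (chromosome 8, 106603351 to 106670246, plus strand) averaged 143 ± 14.8 FPKM in small neonatal islets (SD, n = 9), 143 ± 11.7 in large neonatal islets (n = 11) and 145 ± 7.37 in adult islets (n = 6). Its log2 change between neonatal and adult islets was 0.05 ± 0.06 (SE, adjusted p = 0.442, limma). Under median-of-ratios rescaling the same difference was -0.15 ± 0.06 and passed the threshold as lower in neonatal islets (adjusted p = 0.0244), so its direction depends on the scaling. In the authors' deposited table Cdh1 had a log2 fold change of -0.188 with an FDR of 0.0095. Cdh2 (chromosome 18, 16588877 to 16809246, minus strand) averaged 36.9 ± 4.07 FPKM in small neonatal islets (SD, n = 9), 37.3 ± 5.01 in large neonatal islets (n = 11) and 36.2 ± 5.36 in adult islets (n = 6), a log2 change between ages of 0.10 ± 0.09 (SE, adjusted p = 0.322, limma). Cdh1 exceeded Cdh2 in every library, by a ratio of 3.90 ± 0.30 in small neonatal islets (SD, n = 9), 3.87 ± 0.39 in large neonatal islets (n = 11) and 4.08 ± 0.74 in adult islets (n = 6).

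The pooled values hid opposite steps of Cdh2, as deposited, in the 2 batches with both ages. In batch 2, Cdh2 had 42.6, 37.9 and 39.6 FPKM in small neonatal islets, 38.7, 42.3, 39.4 and 44.1 in large neonatal islets, and 32.0, 31.5, 35.5 and 32.5 in adult islets. In batch 3, Cdh2 had 34.8 and 42.2 FPKM in small neonatal islets, 28.4, 37.4 and 37.4 in large neonatal islets, and 41.8 and 43.9 in adult islets. The neonatal values were the higher ones in batch 2, without overlap (log2 change 0.29, adjusted p = 0.000196, limma), and mostly the lower ones in batch 3 (-0.24, adjusted p = 0.213). After median-of-ratios rescaling, in a fit of batches 2 and 3, the changes were 0.08 and -0.41, so the batch 2 step was small.

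Gjd2 (chromosome 2, 114009601 to 114013619, minus strand) followed the same course. In batch 2, Gjd2 had 107, 115 and 109 FPKM in small neonatal islets, 116, 103, 99.4 and 90.2 in large neonatal islets, and 84.3, 79.9, 73.9 and 75.2 in adult islets. In batch 3, Gjd2 had 79.2 and 95.6 FPKM in small neonatal islets, 67.1, 86.3 and 77.7 in large neonatal islets, and 91.1 and 107 in adult islets. Every neonatal value lay above the adult ones in batch 2, while in batch 3 all but 1 lay below. The log2 change was 0.43 in batch 2 (adjusted p = 4.46e-05, limma), -0.27 in batch 3 (adjusted p = 0.179) and 0.17 ± 0.10 (SE, adjusted p = 0.151) over all batches. Without adult library 6 the pooled change was 0.28 and passed the threshold (adjusted p = 0.0165).

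The size of the age difference was tested between batches 2 and 3 directly. By limma's interaction term it differed for 44.9% of genes and for 6 of the 9 members, namely Gjd2, Cdh2, Ncam1, Epcam, Robo1 and Robo2, and the same 6 passed after median-of-ratios rescaling. The interaction was -0.06 for Slit2 (adjusted p = 0.918), 0.30 for Efna5 (adjusted p = 0.298) and -0.07 for Cdh1 (adjusted p = 0.638). The calls for Slit2, Efna5 and Robo2 thus held in each batch alone, whereas Ncam1 passed only in batch 2 and Epcam only in batch 3. Gjd2, Cdh2 and Robo1, not called over all batches, passed as higher in batch 2 alone as deposited, where the median gene rose by 0.19. After median-of-ratios rescaling, in a fit of batches 2 and 3, their batch 2 changes were 0.21, 0.08 and 0.08. Their batch 3 changes in that fit were -0.44, -0.41 and -0.39. Across batches the size difference gave 0 called genes (0%) by limma's F test, with 1722 of 13402 genes at an unadjusted p under 0.05, and the members' adjusted p ran from 0.302 to 0.995.

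**Figure D3:**
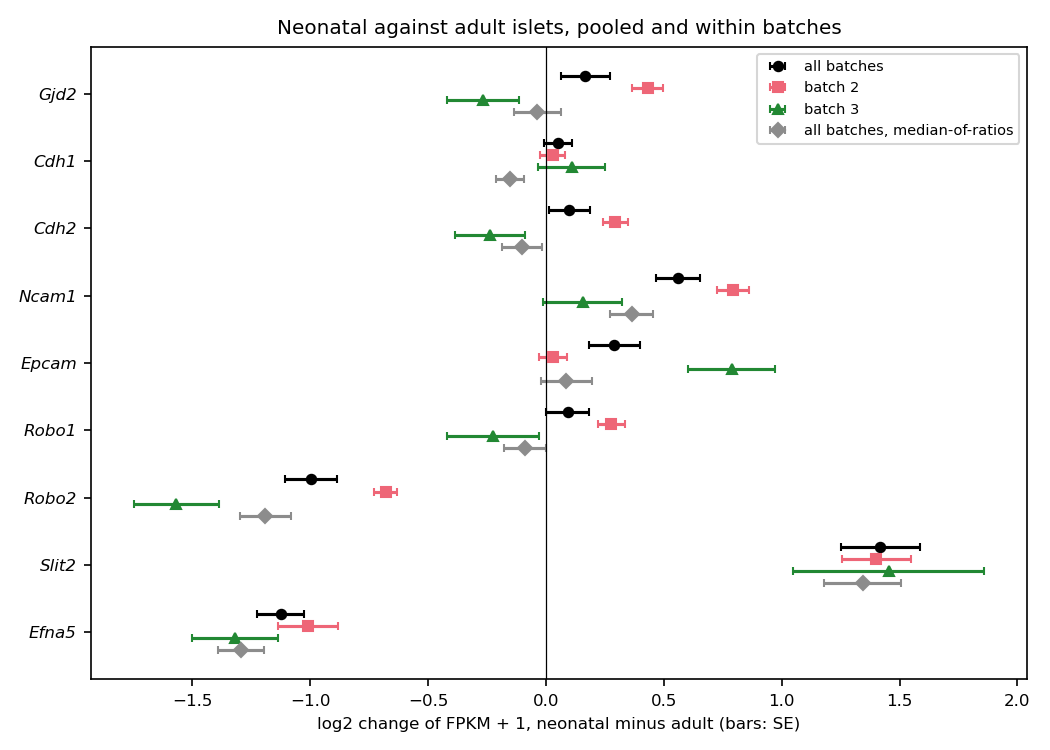
Log2 change of FPKM + 1, neonatal minus adult (horizontal axis), for each gene over all batches, in batch 2, in batch 3 and over all batches after median-of-ratios rescaling, with bars for the SE. Slit2, Robo2 and Efna5 keep their side of 0 throughout, while Gjd2, Cdh2 and Robo1 lie on opposite sides in batches 2 and 3. Ncam1 and Epcam also keep their side. The bars cross 0 for Ncam1 in batch 3, and for Epcam in batch 2 and after rescaling.

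Against adult islets, the 2 sizes of neonatal islets gave much the same members. In small islets 43.1% of genes were called higher and 19.9% lower, and the members called were Ncam1 and Slit2 (higher) and Robo2 and Efna5 (lower). In large islets 46.9% of genes were called higher and 20.2% lower, with Epcam (log2 change 0.36, adjusted p = 0.00727) joining Ncam1 and Slit2 on the higher side. These comparisons share the adult libraries. The Slit2 log2 change was 1.05 ± 0.19 in small and 1.78 ± 0.18 in large islets, and that of Efna5 was -1.32 ± 0.11 in small and -0.93 ± 0.11 in large islets (SE, limma). Small islets were thus nearer to adult ones for Slit2 and farther from them for Efna5, as the direct size test above shows. For the other 7 members the size difference lay between -0.15 and 0.09, and none passed the threshold (adjusted p 0.278 to 0.985, limma). In batch 1 alone Epcam (-0.36, adjusted p = 0.00617) and Gjd2 (-0.24, adjusted p = 0.042) were also lower in small islets.

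**Figure D4:**
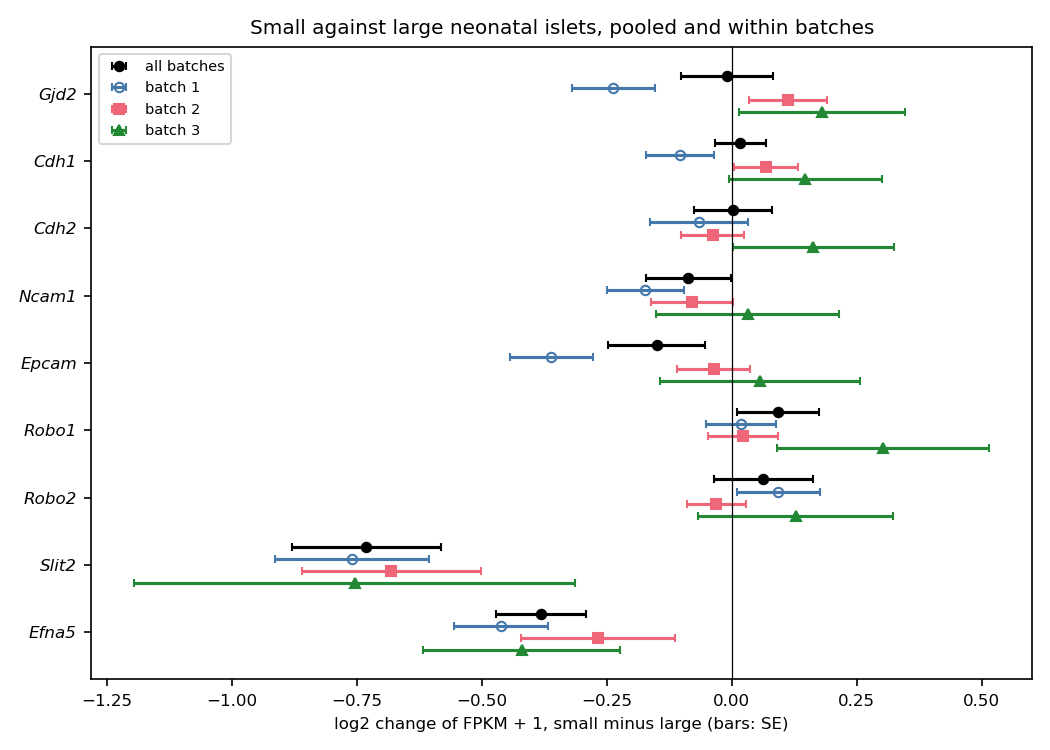
Log2 change of FPKM + 1, small minus large neonatal islets (horizontal axis), for each gene over all batches and within batches 1, 2 and 3, with bars for the SE. Slit2 and Efna5 lie left of 0 in all 3 batches. Gjd2, Epcam, Ncam1 and Cdh1 do so in batch 1 with their bars clear of 0, of which Gjd2 and Epcam passed the threshold.

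By FPKM, which is per length, the members kept 1 broad order of level. In neonatal islets it ran from Cdh1 (143 ± 12.8, SD, n = 20) over Epcam (89.7 ± 20.6), Gjd2 (84.7 ± 18.7), Cdh2 (37.1 ± 4.5), Ncam1 (30.8 ± 3.15), Robo2 (10.7 ± 1.49), Robo1 (9.00 ± 1.13) and Slit2 (3.61 ± 1.88) to Efna5 (2.70 ± 0.67). Epcam and Gjd2, Cdh2 and Ncam1, Robo2 and Robo1, and Slit2 and Efna5 are neighbours within the sum of their SDs. In adult islets Robo2 (22.3 ± 5.03, n = 6) stood beside Ncam1 (20.9 ± 5.08), and Efna5 (6.71 ± 1.23) beside Robo1 (7.99 ± 1.31), with Slit2 last (0.334 ± 0.224). Once group and batch terms were removed, Cdh2, Ncam1, Robo1 and Robo2 varied together over the 26 libraries. Their 6 pairs had Pearson r from 0.809 to 0.916. Epcam ran against these genes, with r from -0.654 to -0.345. Summed duct markers, whose adult levels differed between batches 2 and 3, had r of -0.862 with Robo2, -0.842 with Ncam1 and 0.75 with Epcam, and summed Schwann and glial markers had r of -0.769, -0.609 and 0.754 with the same genes. The terms removed left in the age by batch interaction, positive for Cdh2, Ncam1, Robo1 and Robo2 and negative for Epcam. These r values thus include the batch differences in age change and do not isolate variation from library to library. The part of either cell type in the batch differences was not tested.

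The gene most alike to each remaining member, over 26 libraries and less batch terms, is given as a description. For Ncam1 it was Neo1 (r = 0.979), which encodes the netrin and repulsive guidance molecule receptor neogenin. For Robo2 it was Slc9a7 (0.964), a sodium and proton exchanger gene, for Cdh2 Tmem178b (0.94), for Epcam Sod1 (0.917), the cytosolic superoxide dismutase gene, for Gjd2 Alg2 (0.916), an enzyme of protein glycosylation, and for Robo1 Slc36a1 (0.887), an amino acid transporter gene. Cdh1 had the weakest best match, Slc25a51 (0.76), a mitochondrial carrier gene.

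Most relatives of the 9 genes that were tested were called higher in neonatal islets, where 46.8% of all genes were called and the typical gene changed by 0.16 (median, log2). Of 5 other connexins tested all 5 rose, with a median log2 change of 1.16, led by Gja4 (2.22 ± 0.10) and Gjc1 (1.82 ± 0.07), connexins of vessel walls. Of 6 further Slit and Robo pathway genes 6 rose (median 0.76), led by Robo4 (1.82 ± 0.08), the Robo of endothelium, and by Slit1 (1.07 ± 0.08), and 4 of the 6 remained called after median-of-ratios rescaling. All 6 other ephrins tested rose (median 1.06), led by Efnb2 (1.84 ± 0.07), an arterial ephrin, and Efna2 (1.65 ± 0.07), so Efna5 was the 1 ephrin of the 7 tested that fell. Of 9 Eph receptors 7 rose and 0 fell (median 0.90), led by the venous receptor Ephb4 (1.97 ± 0.11) and by Epha3 (1.83 ± 0.24). Some genes passed the filter on low values only through neonatal libraries, being below 1 FPKM in every adult one: 2 of the 5 connexins, Slit1, 1 of the 6 ephrins and 3 of the 9 Eph receptors, Epha3 among them. With no filter, an alternative chosen after seeing the data, 7 of 7 connexins and 8 of 10 Eph receptors rose and 0 fell, and the other families kept their counts. Values after ± are SEs, each of these named genes had an adjusted p of 4.57e-07 or less by limma, and each moved the same way in batches 2 and 3.

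Cadherins and immunoglobulin adhesion molecules were more mixed. Of 11 other cadherins 8 rose and 3 fell (median 0.94), with Cdh5 (2.48), the endothelial cadherin, and Cdh11 (1.42), a mesenchymal one, at the top and Cdh8 (-1.52) and Cdh7 (-0.67) at the bottom. Cdh11 was also lower in small than large neonatal islets (-0.67, adjusted p = 0.00326, limma). Of 13 catenins and nectins 7 rose and 1, Ctnnd2 (-1.39), fell (median 0.28), but 5 rose and 3 fell after median-of-ratios rescaling. Of 13 other immunoglobulin adhesion molecules 9 rose and 2 fell (median 0.74), with Mcam (2.14) and Bcam (1.36) highest and Cntn1 (-0.45) and Nrcam (-0.23) lowest, and 7 of the 13 were lower in small than large neonatal islets and 0 higher, where 12.7% of all genes were lower and 4.96% higher. Neuronal and Schwann markers, counted above, were lower in small islets as well. Both polysialyltransferases, the enzymes that add polysialic acid to the Ncam1 product, rose, St8sia4 by 0.64 ± 0.07 and St8sia2 by 0.50 ± 0.10 (SE). Of 19 tight junction genes and Epcam partners 7 rose and 5 fell (median 0.12), with Cldn5 (3.04), the endothelial claudin, and Cldn2 (1.84) highest and Cldn12 (-0.41) among those that fell, and 6 rose and 6 fell after rescaling. Of these families 5 cadherins, Cdh11 among them, 2 catenins or nectins, 1 immunoglobulin adhesion molecule, both polysialyltransferases, and 2 tight junction genes, Cldn5 among them, were below 1 FPKM in every adult library.

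Among the other guidance families, 9 of 10 netrins and their receptors rose and 0 fell (median 0.51), led by Unc5b (1.74 ± 0.08) and Rgma (1.10 ± 0.08), and after rescaling 7 rose and 1 fell. Here 2 of the 10 were below 1 FPKM in every adult library, and 3 of the 27 genes that follow. Of 27 semaphorins, plexins and neuropilins 21 rose and 2 fell (median 0.70, SE after ±), with Plxnd1 (2.74 ± 0.10), an endothelial plexin, and Sema5a (1.83 ± 0.11) highest and Sema3e (-0.70 ± 0.11), a ligand of Plxnd1, and Plxna2 (-0.32 ± 0.09) lowest. Several of these leading genes are genes of vessels, and 10 of 10 endothelial markers were called higher in neonatal islets, with summed levels of 402 to 594 FPKM in small neonatal islets, 419 to 633 in large neonatal islets and 166 to 210 in adult islets. Neuronal markers rose too, 7 of 9, with sums of 86.7 to 141 FPKM in small neonatal islets, 132 to 177 in large neonatal islets and 53.6 to 73.0 in adult islets. The part of vessel and nerve cells in these changes was not tested.

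**Figure D5:**
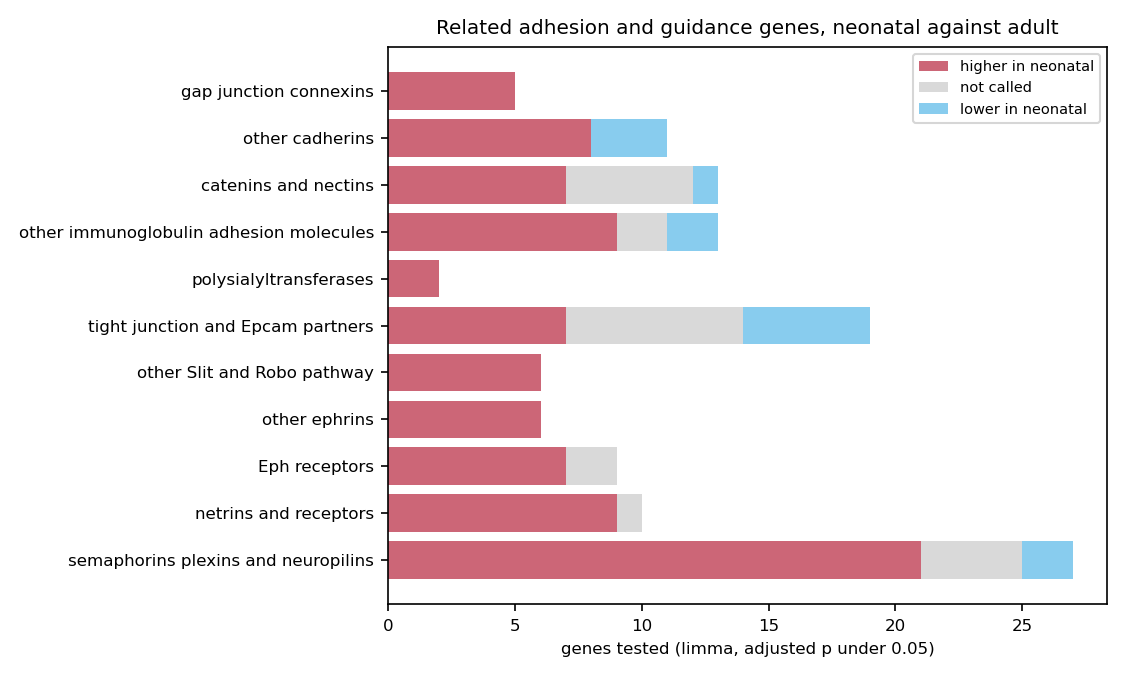
Number of genes tested (horizontal axis) in each family, split into those higher in neonatal islets, not called and lower in neonatal islets, by limma at an adjusted p under 0.05 as deposited. Connexins, ephrins and the Slit and Robo pathway are entirely on the higher side, the last with 4 of 6 after median-of-ratios rescaling, and tight junction genes are the most divided.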

How the data were processed

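RNA of mouse islets was sequenced after ribosomal RNA removal, per the labels' protocols. The authors deposited 1 table of FPKM for 26 libraries, with a log2 fold change, a mean log2 CPM, a score (F), a p-value and an FDR of their neonatal against adult comparison. Per the submitters' processing notes, mm10, STAR 2.6a, HTSeq 0.11.1 and edgeR were used, with no roles given. Whole fragment counts were recovered from the FPKM (100% of values whole within 0.03 fragments) for depth and for a voom alternative, which made 6269 higher and 2821 lower calls between ages. Log2(FPKM + 1) was fitted with limma 3.58.1 (R 4.3.3, statmod 1.5.0; trend, robust) with group and batch terms, on genes of at least 1 FPKM in at least 6 libraries. Tests were two-sided, with Benjamini-Hochberg adjustment over all genes tested. The fits and the recovery were tested on simulated data. No 2 libraries of the same group and batch were identical or agreed within counting noise. All 9 members are named. For each family, the 2 largest rises and falls among called genes with 1 direction in batches 2 and 3 are named. Members and lists were chosen with earlier results of these data known. A gene alike to Efna5 is not reported here.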

Additional observations from a re-analysis of the deposited data

Results flagged for a closer look

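In 2 of 54 groups of 4 or more libraries tested, 1 library lay far from the rest. Among the groups tested, that is no more often than the 1 in 20 or so that chance gives. Robo1 in small neonatal library 1 of batch 1 (8.90 FPKM) was separated from its group by 0.841 of the whole range. Robo2 in large neonatal library 12 of batch 1 (12.5 FPKM) was separated by 0.923 of it. The group of all 11 large neonatal libraries was not tested in this way. There, library 14 of batch 3 had the lowest Robo1, 4.97 FPKM, against 7.89 to 10.2 in the others. Library 14 also had the lowest Robo2, 6.32 FPKM, against 9.37 to 12.6 in the others.

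The neonatal against adult difference itself differed between batches 2 and 3 for 6 genes by limma's interaction term, given as batch 2 minus batch 3 on the log2 scale over 18 libraries. It was 0.705 for Gjd2 (adjusted p = 0.000551), 0.55 for Cdh2 (0.00293), 0.648 for Ncam1 (0.00291), -0.75 for Epcam (0.000984), 0.526 for Robo1 (0.0225) and 0.901 for Robo2 (0.000162). Among all genes 44.9% passed the same test, and batch 3 held 2 adult libraries. Summed duct markers, Krt18 among them, were lower in these 2 adult libraries than in the 4 of batch 2, and their part in the differences was not tested.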

How the results depend on the processing

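Leaving out each library in turn kept the side of the threshold of 929 of 936 member values over the 4 comparisons, with 2 calls lost (Epcam) and 5 gained (Gjd2, Robo1). Of 324 values under other settings 310 kept their side, 10 lost the call, 2 gained it and 2 reversed. Among the values that kept their side, 17 and 36 uncalled ones changed sign. Both reversals were Cdh1 under median-of-ratios rescaling, -0.1533 in neonatal against adult islets and -0.1824 in large neonatal against adult islets. The number of members lower in small than large islets was 2, against 4 in batch 1 alone, 0 in batch 2 alone and 0 in batch 3 alone, where fewer libraries entered. The Epcam call was also lost with quantile normalization (0.15) and without the batch term (0.10).

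With the number in the library names as a replicate block, 7 small and 7 large neonatal libraries gave 0 members higher and 2 lower (Slit2 -0.80, Efna5 -0.45). Same-numbered libraries deviated together with r from -0.156 to 0.626, so the numbers do not establish pairs. Adult Slit2 rests on few fragments, and precision in batch 3 is limited by its 2 adult libraries.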
